A study of Mus musculus with 42 samples.

Results

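The genes described here encode the proteins that copy the genome in S phase: 44 of the 27179 genes in the count table, chosen by name as subunits of the replication machinery. The choice was made with earlier results of these data known. They fall into 7 groups by role. Origin licensing has 9 genes (Orc1 to Orc6, Cdc6, Cdt1 and Gmnn), the MCM2-7 helicase core has 6 (Mcm2 to Mcm7), and helicase activation has 6 (Mcm10, Cdc45 and Gins1 to Gins4). Polymerase alpha-primase has 4 (Pola1, Pola2, Prim1 and Prim2), polymerases delta and epsilon have 7 (Pold1 to Pold3, Pole and Pole2 to Pole4), the clamp, clamp loader and single-strand binding group has 9 (Pcna, Rfc1 to Rfc5 and Rpa1 to Rpa3), and Okazaki fragment maturation has 3 (Fen1, Lig1 and Dna2). All 44 were counted in every library and passed the filter on low counts in every comparison.

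RNA-seq was performed on spermatogonia of male C57BL/6J mice at 10 days postpartum (dpp). Controls were Ddx4-Cre/Chd8+/F and mutants, called CKO, were Ddx4-Cre/Chd8F/-, so that animals of both genotypes carried the Cre transgene and a floxed Chd8 allele. CHD8 is a chromatin remodeler, and the Ddx4 promoter drives Cre in germ cells only, so somatic cells that pass the sort keep an unrecombined floxed allele. By these genotypes the other allele of such cells is + in controls and − in CKO animals, so they too differ between the groups. Cells were sorted on magnetic beads, first for c-Kit, an antigen of differentiating spermatogonia, and then, from the flow-through, for Thy1, an antigen of undifferentiated spermatogonia, with 3 libraries for each of the 4 combinations of population and genotype.

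Replication starts when the origin recognition complex, with Cdc6 and Cdt1, loads the MCM helicase on DNA before S phase, and geminin (Gmnn) blocks a second loading. Cdc45 and the GINS complex then join MCM to form the active CMG helicase, primase starts each new strand, polymerases epsilon and delta extend the leading and the lagging strand with the PCNA clamp, and Fen1, Dna2 and Lig1 join Okazaki fragments. Transcription of many of these genes rises at the border of G1 and S phase through E2F factors, and in the testis spermatogonia divide several times before a last S phase that precedes meiosis.

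The letters of the E2F consensus were looked for in the windows around the annotated starts, 250 bases before to 50 after, as given for RefSeq genes on GRCm38.p6. Of the 44 genes, 36 had an entry in the table of windows, with 45 windows in all, since some genes have several annotated starts. A gene was taken to hold a match when any of its windows did. Gmnn, Mcm4, Gins1, Gins2, Gins4, Prim2, Pole and Rfc2 had no entry, so no letters were searched for them. The letters searched were TTTCCCGC, TTTCGCGC, TTTGCCGC and TTTGGCGC on both strands, and a match on one strand could overlap a match on the other. A match was found for 16 of the 36 genes (44.4%), against 2.6% of all 27025 genes in the table and 4.32% of the 12928 genes that were tested in c-Kit+ cells. The letters CCAAT, bound by NF-Y, were present for 58.3% of the 36 genes and 42.5% of the genes tested in c-Kit+ cells, and TTTGAA, the core of the cell cycle homology region, for 13.9% and 14.4%. The following lines show 30 bases around a match for the 5 genes with a match that passed both thresholds of the c-Kit+ comparison, and for 3 further helicase subunits, with every matched letter in capitals.
Mcm5, chr8:75109349-75109378 (plus strand): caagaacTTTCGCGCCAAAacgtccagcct
Gins3, chr8:95633507-95633536 (plus strand): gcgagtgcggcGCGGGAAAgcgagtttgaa
Orc1, chr4:108579416-108579445 (plus strand): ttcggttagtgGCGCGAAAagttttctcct
Lig1, chr7:13278841-13278870 (plus strand): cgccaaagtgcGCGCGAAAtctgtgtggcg
Pold3, chr7:100121467-100121496 (minus strand): gagcgaagctgTTTCCCGCcggcgggagct
Mcm3, chr1:20820275-20820304 (minus strand): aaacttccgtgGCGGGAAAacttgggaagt
Mcm6, chr1:128359734-128359763 (minus strand): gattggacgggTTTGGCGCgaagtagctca
Mcm7, chr5:138171849-138171878 (minus strand): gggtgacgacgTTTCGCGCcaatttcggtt

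The matches lay on both sides of the annotated start. In Orc1 the first matched base was at −27 and in Gins3 at −41, counted from 0 at the start, whereas in Pold3 and Lig1 the matches began at 17 and 26, within the transcribed sequence. For Lig1 this is counted from the start of the window that held the match, and the windows at its other annotated starts held none. In Mcm5 2 matches on opposite strands, at −153 and −149, overlapped, so that one run of letters reads as TTTCGCGC on the plus strand and as TTTGGCGC on the minus strand. The 250 bases before the start of Mcm5 are shown beside those of Prim1, a gene called lower in c-Kit+ CKO cells that held no match in this window.
Mcm5, chr8:75109259-75109508 (plus strand): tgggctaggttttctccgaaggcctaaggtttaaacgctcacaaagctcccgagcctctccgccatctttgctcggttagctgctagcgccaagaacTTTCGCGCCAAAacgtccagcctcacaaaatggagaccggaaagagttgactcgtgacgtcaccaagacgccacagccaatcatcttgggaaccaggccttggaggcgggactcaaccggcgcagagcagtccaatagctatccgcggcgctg
Prim1, chr10:128014965-128015214 (plus strand): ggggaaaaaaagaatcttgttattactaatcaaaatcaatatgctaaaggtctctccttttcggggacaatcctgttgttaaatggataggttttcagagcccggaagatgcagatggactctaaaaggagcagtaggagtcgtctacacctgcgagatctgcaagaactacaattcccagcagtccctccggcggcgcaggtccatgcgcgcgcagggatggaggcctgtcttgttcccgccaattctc

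**Figure D1:**
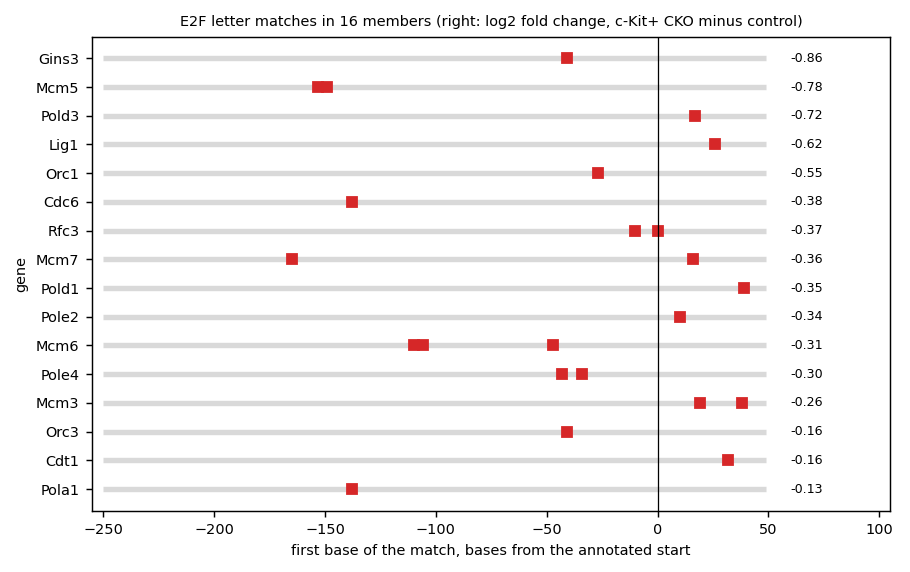
Positions of the E2F letter matches in the 16 replication genes that hold one, as the distance in bases of the first matched base from the annotated start (x axis), with 1 row per gene and its c-Kit+ log2 fold change at the right. A match is placed from the start of its own window, so the Pole4 match, shared by overlapping windows, shows more than once. Matches lie between −165 and 39 bases, and 5 of the 16 genes (Mcm5, Gins3, Orc1, Lig1 and Pold3) were called lower in c-Kit+ CKO cells.

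The 12 libraries held 32266861 to 45396233 counts. The replication genes took 0.587 to 0.627% of all counts in c-Kit+ control libraries, 0.454 to 0.492% in c-Kit+ CKO libraries, 0.365 to 0.506% in Thy1+ control libraries and 0.321 to 0.446% in Thy1+ CKO libraries. Chd8 itself, summed over all exons, was at 34.3 RPKM in c-Kit+ control and 37.3 RPKM in c-Kit+ CKO libraries, and at 32.9 and 33.5 RPKM in the Thy1+ pair. The whole-gene count includes the exons outside the floxed part and therefore does not check the deletion. RPKM here is the count scaled to the exon length and to the TMM-scaled library size. RNA of the sorting antigens differed between the populations: Thy1 was at 7.27 RPKM in Thy1+ controls and 0.395 RPKM in c-Kit+ controls, and Kit was at 55.5 and 129 RPKM. Markers of other cells differed as well. In controls the median log2 fold change, Thy1+ minus c-Kit+, was 2.91 for stromal and −2.96 for mast cell markers. The antigen levels alone thus do not show how pure the spermatogonia were. Libraries of a group differed by more than counting noise, so none was taken for a repeat deposit of another. Nothing in the labels says that they came from separate animals. The study names 3 male pups for each analysis and n = 3 per genotype, without saying which pups gave which library. The p-values measure the spread between these libraries alone.

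Levels of the 44 genes spanned a wide range in controls. Averaged over the 6 control libraries, Pcna, the sliding clamp, was highest at 140 RPKM, followed by the helicase subunits Mcm7 (126 RPKM), Mcm6 (106 RPKM) and Mcm2 (101 RPKM). Pola1, the catalytic subunit of polymerase alpha, was lowest at 7.26 RPKM, next to the nuclease-helicase Dna2 at 8.10 RPKM and Orc4 at 9.11 RPKM. Subunits of one complex were not at one level. Among the licensing genes the levels ran from 9.11 RPKM for Orc4 to 82.3 RPKM for Gmnn, among the activation factors from 10.1 RPKM for Gins3 to 43.7 RPKM for Gins4, in polymerase alpha-primase from Pola1 to 38.0 RPKM for Prim1, in polymerases delta and epsilon from 10.5 RPKM for Pole2 to 73.4 RPKM for Pole3, and in the clamp group from 30.7 RPKM for Rfc3 to Pcna. The MCM2-7 core lay between 60.1 RPKM for Mcm4 and the level of Mcm7. The spread between libraries depended on the population, with a median coefficient of variation over the 44 genes of 5.61% in c-Kit+ control and 5.08% in c-Kit+ CKO libraries, but 15.3% in Thy1+ control and 15.4% in Thy1+ CKO libraries.

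The first question was how loss of Chd8 bears on these genes in c-Kit+ spermatogonia. Every one of the 44 had a log2 fold change below 0 in CKO against control cells, where 49% of all 17134 genes tested did. A gene was called when its FDR, the Benjamini-Hochberg adjusted p of edgeR's quasi-likelihood test, was under 0.05 and its log2 fold change was over 0.5 in size. By this rule 12 genes were called lower and 0 were called higher, against 7.41% of all genes called lower and 14.8% called higher. Without the fold minimum, 32 of the 44 were lower at an FDR under 0.05 (18.3% of all genes) and 0 were higher (20.8% of all genes), and in 34 the 3 CKO libraries lay below the 3 control libraries without overlap (20.6% of all genes). The median log2 fold change was −0.33 over the 44 genes and 0.01 over all genes tested. With all 12 libraries in one fit the FDR count dropped to 15 and the called count to 10. In sorted bulk samples fewer cells in S phase, fewer germ cells and less mRNA per cell cannot be told apart.

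**Figure D2:**
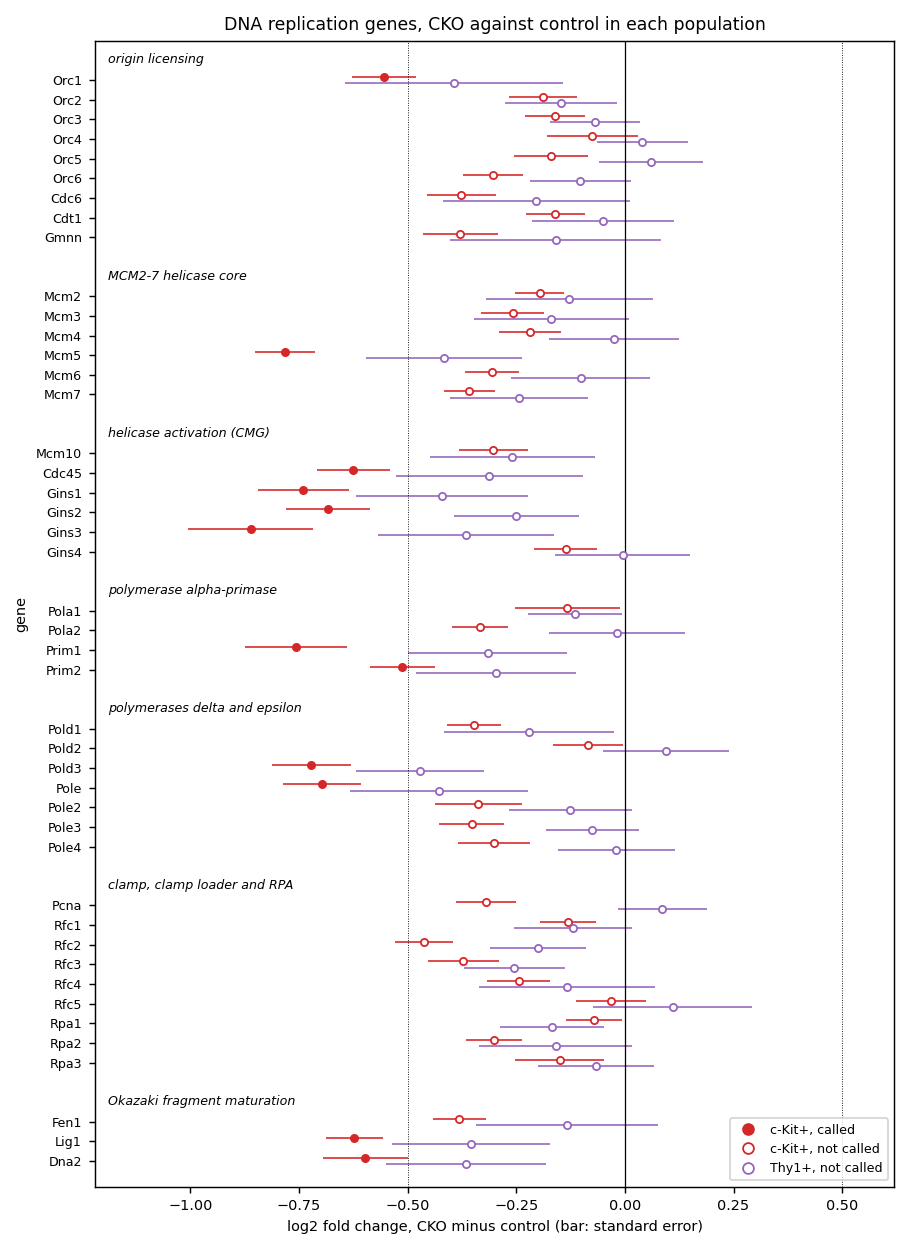
Log2 fold changes of the 44 replication genes (x axis, CKO minus control, bars give the standard error) by role, in c-Kit+ and Thy1+ cells, with filled points for genes called at an FDR under 0.05 and a log2 fold change over 0.5 in size. All 44 c-Kit+ points lie below 0 and 12 are filled, and 39 of the 44 Thy1+ points lie below 0 with none filled.

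Among the licensing genes, 1 of 9 was called and 4 were lower at an FDR under 0.05, with a median log2 fold change of −0.19. Orc1, the ATPase subunit of the origin recognition complex whose amount varies through the cell cycle, was at 29.7, 33.5 and 29.9 RPKM in c-Kit+ control libraries 1, 2 and 3 and at 22.7, 22.3 and 21.1 RPKM in the CKO libraries. The groups did not overlap, and Orc1 fell by 0.55 on the log2 scale (SE 0.07, FDR 0.000469). Of the other origin recognition subunits, Orc6 was lower (log2 fold change −0.30, FDR 0.00614), whereas Orc2, Orc3, Orc4 and Orc5 had log2 fold changes from −0.19 to −0.07 that did not pass. Orc4 shares 10.3% of its exon length with Acvr2a on the other strand. The loading factor Cdc6 and the loading inhibitor Gmnn each had a log2 fold change of −0.38 (FDR 0.00418 and 0.00615). Cdt1, the partner of Cdc6 in loading, was at −0.16 (FDR 0.087).

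All 6 subunits of the MCM2-7 core were lower at an FDR under 0.05, and 1 was called. Mcm5 was at 88.8, 98.6 and 95.3 RPKM in control and at 57.3, 60.8 and 53.1 RPKM in CKO libraries. The groups were far apart, and Mcm5 had the lowest p of the 44 genes. It fell by 0.78 on the log2 scale (SE 0.07, FDR 0.000144), to 0.58 of the control level. Mcm7 was at 143, 144 and 132 RPKM in control and 113, 118 and 110 RPKM in CKO libraries, also without overlap, and its log2 fold change of −0.36 (FDR 0.00124) was below the fold minimum. Mcm6, Mcm3, Mcm4 and Mcm2 had log2 fold changes of −0.31, −0.26, −0.22 and −0.20, so that the change of Mcm5 was the largest of the 6.

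The activation factors held the most called genes, 4 of 6, and had the lowest group median, −0.65. Cdc45, which joins MCM to make it an active helicase, was at 48.7, 52.7 and 52.8 RPKM in control and 32.8, 38.8 and 32.4 RPKM in CKO libraries. Gins1 was at 22.6, 24.0 and 20.3 RPKM against 13.7, 14.9 and 13.1 RPKM, and Gins2 at 27.3, 26.3 and 25.9 RPKM against 17.04, 15.9 and 18.6 RPKM. Gins3 was at 10.0, 14.5 and 12.5 RPKM against 6.18, 7.71 and 7.31 RPKM. None of these 4 overlapped between genotypes. The log2 fold changes were −0.62 for Cdc45 (SE 0.08, FDR 0.000481), −0.74 for Gins1 (SE 0.10, FDR 0.000612), −0.68 for Gins2 (SE 0.10, FDR 0.000596) and −0.86 for Gins3 (SE 0.14, FDR 0.00129), the lowest of the 44. Gins4, the remaining subunit of the same complex, stood apart: its libraries were at 49.8, 49.4 and 45.3 RPKM in control and 43.7, 47.9 and 45.2 RPKM in CKO cells, which overlap, with a log2 fold change of −0.14 (FDR 0.165). Mcm10, which helps to activate the helicase, was at −0.30 (FDR 0.013). Exons of Gins2 overlap those of Gse1 on the other strand over 11.4% of the Gins2 exon length. No strand option is recorded in the count table, so reads in the shared bases could not be assigned by strand.

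In polymerase alpha-primase both primase subunits were called and the polymerase subunits were not. Prim1, the catalytic subunit of primase, was at 38.2, 49.8 and 43.6 RPKM in control and 27.1, 30.4 and 23.6 RPKM in CKO libraries. Prim2, the large primase subunit, was at 36.0, 37.2 and 35.0 RPKM against 26.4, 28.1 and 24.5 RPKM. Neither overlapped, and the log2 fold changes were −0.76 for Prim1 (SE 0.12, FDR 0.000913) and −0.51 for Prim2 (SE 0.08, FDR 0.000715). Prim2 was close to the fold minimum and lost its call without c-Kit+ control replicate 2 (−0.49) and without CKO replicate 3 (−0.47). Pola2, the accessory subunit, was at −0.33 (FDR 0.00276), and Pola1 was at 5.82, 7.11 and 6.49 RPKM against 7.14, 6.04 and 5.27 RPKM, with overlap and a log2 fold change of −0.13 (FDR 0.42).

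Of the subunits of polymerases delta and epsilon, 2 of 7 were called and 6 were lower at an FDR under 0.05. Pold3, an accessory subunit of polymerase delta, was at 26.8, 31.4 and 31.3 RPKM in control and 17.9, 20.7 and 18.0 RPKM in CKO libraries. Pole, the catalytic subunit of the leading-strand polymerase, was at 55.7, 70.6 and 57.9 RPKM against 38.1, 42.1 and 38.1 RPKM. Both were without overlap, with log2 fold changes of −0.72 for Pold3 (SE 0.09, FDR 0.000378) and −0.70 for Pole (SE 0.09, FDR 0.000413). Pold1, the catalytic subunit of polymerase delta, and Pole3, a histone-fold subunit of polymerase epsilon, were both at −0.35 (FDR 0.00176 and 0.00449), Pole2 was at −0.34 and Pole4 at −0.30. Pold2, the second subunit of polymerase delta, was at 41.8, 38.6 and 45.4 RPKM in control and 43.2, 39.0 and 41.2 RPKM in CKO libraries, with a log2 fold change of −0.09 (FDR 0.434).

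None of the 9 clamp, clamp loader and RPA genes was called, and 5 were lower at an FDR under 0.05. The lowest p was that of Rfc2, a clamp loader subunit, at 53.4, 54.0 and 55.0 RPKM in control and 39.5, 40.4 and 42.7 RPKM in CKO libraries. These did not overlap, and the log2 fold change of −0.46 (SE 0.07, FDR 0.000649) was under the fold minimum. Pcna was at 150, 172 and 150 RPKM against 131, 134 and 128 RPKM, with a log2 fold change of −0.32 (FDR 0.00501). Rfc3, Rpa2 and Rfc4 were at −0.37, −0.30 and −0.24. Exons of Rfc4 overlap those of Eif4a2 on the other strand over 13.2% of the Rfc4 exon length, and Eif4a2 had a mean count of 13829 against 2190 for Rfc4. Reads in the shared bases could not be assigned by strand, so the Rfc4 count there is uncertain. Rfc1, Rfc5, Rpa1 and Rpa3 had log2 fold changes from −0.15 to −0.03 and did not pass. In 1 of these, Rfc5, the direction depended on the fit, with a log2 fold change of −0.03 here and 0.025 with all 12 libraries in one fit. It was also above 0 without c-Kit+ control replicate 1 and without CKO replicate 3, so that 43 of the 44 genes were below 0 in these fits.

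For Okazaki fragment maturation, 2 of 3 genes were called and all 3 were lower at an FDR under 0.05. Lig1, the ligase that seals the fragments, was at 94.7, 108 and 95.2 RPKM in control and 68.3, 66.6 and 66.6 RPKM in CKO libraries. Dna2, which trims long flaps, was at 8.90, 9.64 and 10.7 RPKM against 6.57, 7.22 and 6.33 RPKM. Both were without overlap, with log2 fold changes of −0.62 for Lig1 (SE 0.07, FDR 0.000212) and −0.60 for Dna2 (SE 0.10, FDR 0.00116). Fen1, the flap endonuclease, was at −0.38 (SE 0.06, FDR 0.000996).

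**Figure D3:**
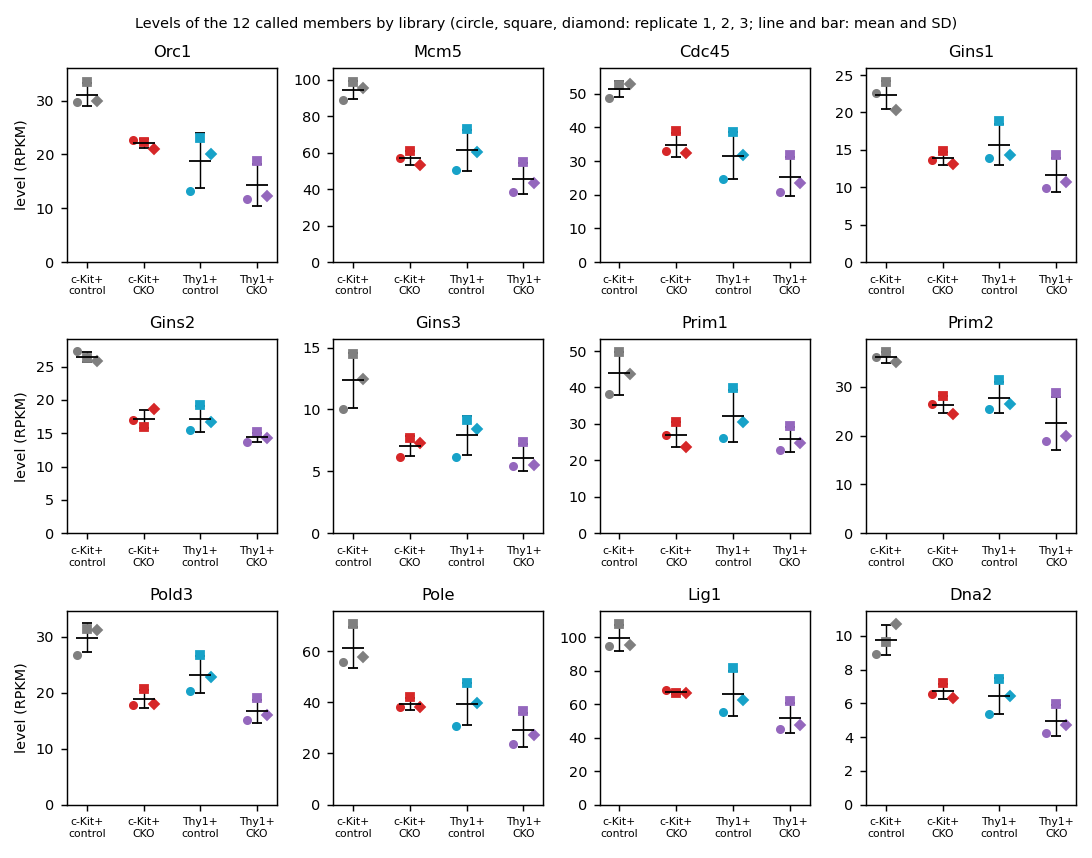
Levels in RPKM (y axis, from 0) of the 12 replication genes called in the c-Kit+ comparison, 1 panel per gene, with a symbol for each of the 3 libraries of each group and the mean and SD as line and bar. In each panel the 3 c-Kit+ CKO libraries lie below the 3 c-Kit+ control libraries, whereas the Thy1+ groups overlap except for Gins2 and Pold3.

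Genes with an E2F match had a median c-Kit+ log2 fold change of −0.35 (16 genes), those with a window and no match −0.27 (20 genes), and those without an entry −0.49 (8 genes). Of the 8 called genes with an entry, 5 held a match. These are descriptions of the letters in the windows and were not tested.

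Markers of other cells moved with this comparison. The 10 germ cell markers summed to 3520 to 4083 CPM (counts scaled to the TMM-scaled library size) in c-Kit+ control and 2714 to 3115 CPM in c-Kit+ CKO libraries, and their median log2 fold change, −0.30, was close to that of the replication genes, with 2 of the 10 called lower (Tex101 and Stra8), 6 lower at an FDR under 0.05 and 0 higher. Dppa3 was the one above 0, at 0.58 (SE 0.26, FDR 0.1). The study reported Stra8 and Zbtb16 (Plzf), both on this list, as down-regulated in Chd8-mutant spermatogonia. The sum of these markers is thus not a measure of germ cell number alone. The 44 replication genes summed to 5682 to 6089 CPM in control and 4514 to 4887 CPM in CKO libraries. Their ratio to the germ cell markers of the same library, on the log2 scale, was 0.577 to 0.691 in control and 0.650 to 0.734 in CKO libraries, so that the groups overlapped, with a mean difference of 0.05. In each numbered pair the CKO library had the higher ratio. The ratio depended on the marker used. Relative to the germ cell markers Ddx4 or Dazl alone, the 44 genes had mean differences of −0.14 and 0.09, both with overlap. Of single genes, Mcm5 and Pold3, both called lower, were set against Ddx4 only. Mcm5 relative to Ddx4, a germ cell gene, was at −0.44 to −0.19 in control and −0.96 to −0.86 in CKO libraries on the log2 scale, without overlap, and Pold3 relative to Ddx4 had a mean difference of −0.50, also without overlap. In Thy1+ cells both ratios overlapped between genotypes, with mean differences of −0.10 for Mcm5 and −0.16 for Pold3. Ddx4 itself had a log2 fold change of −0.22 (FDR 0.0663).

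Somatic markers were higher in c-Kit+ CKO libraries. Of the markers of each type, 7 of 8 for Sertoli cells, 4 of 6 for Leydig cells, 3 of 5 for peritubular myoid cells, 6 of 6 for stromal cells, 5 of 5 for endothelial cells, 1 of 5 for macrophages and 3 of 4 for mast cells were called higher, and 0 were called lower. None of the markers of any list was at 0 in a whole group. The Sertoli cell markers summed to 303 to 748 CPM in control and 1195 to 1269 CPM in CKO libraries, and the stromal markers to 1794 to 2241 CPM and 3250 to 4320 CPM. The part of these shifts in the lower levels of the replication genes was not tested.

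**Figure D4:**
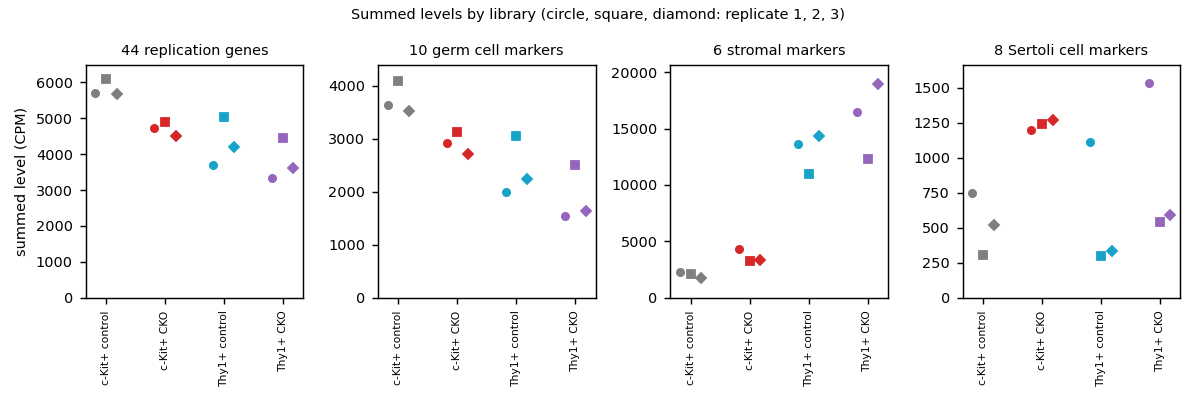
Summed levels in CPM (y axes, each from 0) of the 44 replication genes and of germ cell, stromal and Sertoli cell markers, with 1 symbol per library in each of the 4 groups. In c-Kit+ cells the replication genes and germ cell markers are lower, and both somatic lists are higher, in all 3 CKO libraries than in any control library.

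In Thy1+ cells no replication gene was called. The same test of CKO against control called 0 of 44 replication genes and 0 of all 17416 genes tested, with a lowest FDR of 0.141 over all genes. Before adjustment, 2 of the 44 passed 0.05 in edgeR, both lower: Mcm5 (log2 fold change −0.42, SE 0.18) and Pold3 (−0.47, SE 0.15). Of all genes, 7.69% were lower and 4.66% higher by that rule. DESeq2, which called 363 genes in all, and edgeR's exact test, which called 294, also called 0 of the 44. The log2 fold change was below 0 for 39 of the 44, where 46.6% of all genes were, and the median was −0.15 against 0.02 for all genes. The 5 at or above 0 were Orc4 (0.04), Orc5 (0.06), Pold2 (0.09), Pcna (0.09) and Rfc5 (0.11). Single libraries weighed on these values. The median was −0.25 without control replicate 1, −0.045 without control replicate 2, −0.084 without CKO replicate 1 and −0.32 without CKO replicate 2, and the number of genes below 0 was 27 without control replicate 2 and 41 without CKO replicate 2. Over all genes, 10 were called without control replicate 1. The groups did not overlap for Gins2, Pold3 and Rfc3, 3 of 44, against 10.7% of all genes.

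The spread between Thy1+ libraries followed the replicate number. In both genotypes the second library held the highest share of counts on replication genes, and deviations of same-numbered libraries from their group means correlated at 0.387 to 0.633 over all genes. Mcm5 shows this: it was at 50.5, 73.0 and 60.1 RPKM in control libraries 1, 2 and 3 and at 38.3, 55.1 and 43.5 RPKM in CKO libraries 1, 2 and 3. The groups overlapped, but in each numbered pair the CKO library was the lower one. Pole behaved alike, at 30.9, 47.4 and 39.8 RPKM against 23.6, 36.5 and 27.3 RPKM. Pold3 was at 20.2, 26.7 and 22.8 RPKM against 15.0, 19.03 and 16 RPKM, without overlap.

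With the replicate number as a block in the fit, 19 of the 44 genes were lower at an FDR under 0.05 (13.6% of all genes) and 0 higher (15.6% of all genes). With the fold minimum 0 were called, against 4.92% of all genes lower and 3.2% higher. The lowest FDR values were those of Mcm5 (log2 fold change −0.42, FDR 2.12e-05), Pole (−0.43, FDR 2.15e-05), Pold3 (−0.47, FDR 6.34e-05) and Lig1 (−0.35, FDR 0.000117), all from edgeR with the block. That fit left 2 residual degrees of freedom, so these values lean on the spread shared across genes. The labels do not say what same-numbered libraries have in common, and the pairing was taken from correlations in these data. The 19 comprised Orc1 of the licensing genes, Mcm3, Mcm5 and Mcm7, the activation factors Mcm10, Cdc45, Gins1 and Gins3, both primase subunits, Pold1, Pold3 and Pole, the clamp group members Rfc2, Rfc3, Rpa1 and Rpa2, and Lig1 and Dna2. Over the 3 numbered pairs, the CKO library was lower for 34, 38 and 38 of the 44 genes, with median differences of −0.14, −0.15 and −0.18 on the log2 scale. In 29 of the 44 it was lower in all 3 pairs, which was so for 27.3% of all genes. In c-Kit+ cells the corresponding numbers were 38, 41 and 44 genes, and 37 of the 44 were lower in all 3 pairs, against 27.2% of all genes.

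Marker levels in the Thy1+ libraries were uneven too. The stromal markers summed to 10996 to 14323 CPM in Thy1+ control and 12304 to 18949 CPM in Thy1+ CKO libraries, above the germ cell markers at 1989 to 3045 CPM and 1544 to 2505 CPM. The Sertoli cell markers stood at 1111 CPM in control library 1 against 294 and 336 CPM in the other controls, and at 1533 CPM in CKO library 1 against 541 and 588 CPM. Relative to the germ cell markers of the same library, the replication genes were at 0.728 to 0.908 in control and 0.829 to 1.14 in CKO libraries on the log2 scale, with overlap. The part of these markers in the Thy1+ values was not tested.

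The difference between the genotype effects of both populations was tested as an interaction over all 12 libraries. It was called for 0 of the 44 replication genes, and for 0 of all 18002 genes tested, at an FDR under 0.05 in edgeR's quasi-likelihood test. Before adjustment, 2 passed 0.05, both with the lower value in c-Kit+ cells: Pcna (difference of log2 fold changes −0.34, SE 0.12) and Gins2 (−0.37, SE 0.15). Of all genes, 1.81% passed in that direction and 8.21% in the other. DESeq2 called 53 genes in all and 0 of the 44. With the replicate number as a block, 446 of all genes passed and 0 of the 44. The median difference was −0.13 over the replication genes and 0.08 over all genes. It was −0.030 without Thy1+ control replicate 1, −0.31 without Thy1+ control replicate 2, −0.21 without Thy1+ CKO replicate 1 and −0.0076 without Thy1+ CKO replicate 2, and −0.21 with DESeq2 size factors in edgeR, under which the median of all genes was 0.0044. Pcna was at 112, 133 and 124 RPKM in Thy1+ control and 127, 135 and 128 RPKM in Thy1+ CKO libraries, which overlap, whereas its c-Kit+ groups did not. An effect that differs between Thy1+ and c-Kit+ cells was thus not detected for any of these genes at this number of libraries.

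Each of 35 subunits was also set against the mean of the other subunits of its complex in the same library, per exon length and on the log2 scale. Such a ratio does not depend on the library size or on a shift shared by the whole complex. It can depend on the mix of cells in a library, and that part was not tested. Between control populations the mean ratio was −0.19 in c-Kit+ and −0.43 in Thy1+ libraries for Mcm5, and −0.94 and −0.81 for Pold3. The ratios of one complex are tied, since a lower value of one subunit raises the ratios of the others. With 3 libraries against 3 an exact permutation p cannot fall below 0.10, and the ratios are given as a description, with no share over all genes to read them against. In c-Kit+ cells the 2 genotypes did not overlap for 20 of the 35 ratios, 9 lower and 11 higher in CKO libraries. In Thy1+ cells they did not overlap for 10, 3 lower and 7 higher.

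The ratios without overlap in both populations lay on the same side in both. They were those of Mcm4, Mcm5, Gins4, Pold2, Pold3, Pole4 and Rfc5, 7 genes that make 35% of the 20 in c-Kit+ and 70% of the 10 in Thy1+ cells, and 0 lay on opposite sides. Since 20 of all 35 ratios did not overlap in c-Kit+ cells, several of the 10 would be shared without any link between the populations. Ratios of one complex, such as those of Mcm4 and Mcm5 or of Pold2 and Pold3, are also tied. The c-Kit+ and Thy1+ comparisons share no library, but Thy1+ cells came from the flow-through of the c-Kit sort and same-numbered control libraries of both populations deviated together (correlations of 0.165 to 0.408), so the populations are not independent. Mcm5 against the other ring subunits was at −0.28, −0.17 and −0.11 in c-Kit+ control and −0.71, −0.67 and −0.72 in c-Kit+ CKO libraries, and at −0.48, −0.42 and −0.40 in Thy1+ control and −0.73, −0.69 and −0.72 in Thy1+ CKO libraries. The CKO values of both populations thus lay below those of all 6 control libraries. Gins4 against the other GINS subunits went the other way, from 1.44, 1.24 and 1.28 to 1.95, 1.97 and 1.90 in c-Kit+ cells and from 1.70, 1.54 and 1.62 to 1.96, 2.01 and 1.87 in Thy1+ cells.

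Within polymerase delta the subunits diverged. Pold3 against Pold1 and Pold2 was at −1.11, −0.80 and −0.91 in c-Kit+ control and −1.55, −1.31 and −1.47 in c-Kit+ CKO libraries, and its mean difference was −0.51 in c-Kit+ and −0.41 in Thy1+ cells. Pold2 against Pold1 and Pold3 was higher by 0.45 in both populations, at −0.15, −0.36 and −0.11 against 0.36, 0.06 and 0.33 in c-Kit+ cells. Exons of Pold2 overlap those of Aebp1 on the other strand over 2.86% of the Pold2 exon length, and Aebp1 held more counts than Pold2.

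**Figure D5:**
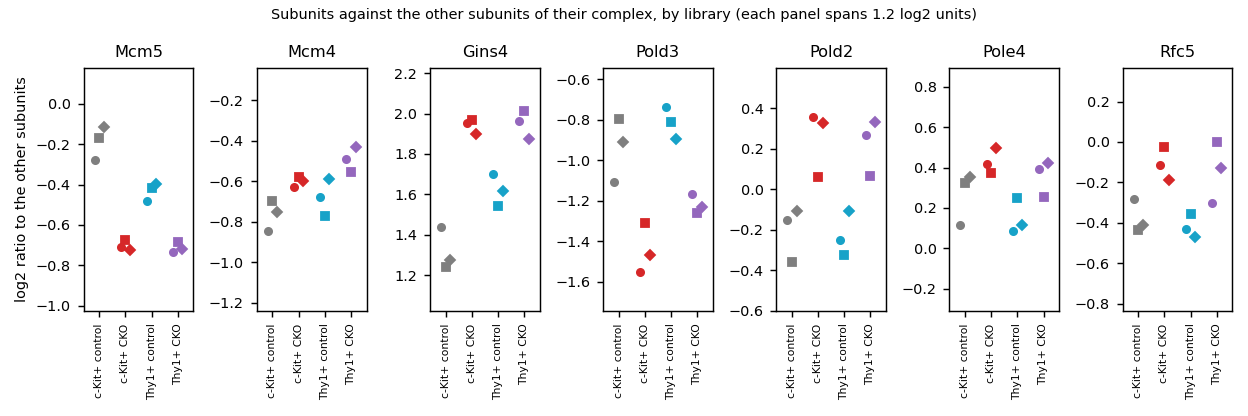
Log2 ratio of a subunit to the mean of the other subunits of its complex (y axis) in each library of the 4 groups, with 1 panel per subunit and a span of 1.2 log2 units in each. Mcm5 and Pold3 lie lower, and Gins4 and Pold2 higher, in all 3 CKO libraries than in the 3 control libraries of both populations.

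The populations themselves were compared in controls. This comparison shares its c-Kit+ and Thy1+ control libraries with the genotype comparisons. Of the 44 genes, 42 had a lower value in Thy1+ than in c-Kit+ control cells, against 48% of all 17350 genes, and 11 were called lower (7.08% of all genes) with 0 called higher (20.7% of all genes). At an FDR under 0.05 without the fold minimum 25 were lower (13.6% of all genes) and 1 was higher (24% of all genes), and the median log2 fold change was −0.36 against 0.03 over all genes. The 8 called genes of lowest p were Gins2 (−0.60), Mcm5 (−0.60), Fen1 (−0.71), Gmnn (−0.88), Cdc45 (−0.68), Dna2 (−0.58), Lig1 (−0.56) and Pole (−0.62). Gmnn, the lowest, was at 113, 113 and 96.4 RPKM in c-Kit+ control and 41.1, 74.3 and 56.7 RPKM in Thy1+ control libraries, without overlap (SE 0.19, FDR 0.00816 in edgeR). Its c-Kit+ genotype value was −0.38 and its Thy1+ genotype value −0.16 (FDR 0.786).

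Pola1 was the exception, at 5.82, 7.11 and 6.49 RPKM in c-Kit+ and 8.68, 7.86 and 7.63 RPKM in Thy1+ controls, and its log2 fold change was 0.34 (SE 0.12, FDR 0.0476 in edgeR). That call was lost under DESeq2, its size factors, plain library sizes, both other filters and the exact test, and without any one of the 6 libraries. The count of 11 depended on single libraries: it was 5 without Thy1+ control replicate 1, 23 without Thy1+ control replicate 2 and 6 without c-Kit+ control replicate 2. Mcm5, Pole, Lig1 and Dna2 lost their calls without Thy1+ control replicate 1. The FDR count was 10 without Thy1+ control replicate 3, and 7 and 8 without c-Kit+ control replicates 2 and 3. With plain library sizes in place of TMM, 19 were called lower, and the share of lower genes among all calls went from 25.5% to 36.3%. Markers of other cells moved with this comparison. In Thy1+ controls 6 of 6 stromal, 4 of 5 peritubular myoid, 5 of 5 macrophage and 2 of 5 endothelial markers were called higher, with list medians of 2.91, 2.58, 2.09 and 0.47 on the log2 scale. Called lower were 5 of 6 Leydig cell, 4 of 4 mast cell and 5 of 10 germ cell markers, with medians of −1.46, −2.96 and −0.67, and 1 germ cell marker was called higher. The 8 Sertoli cell markers had a median of 0.14 with none called. The part of these markers was not tested.

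Other genes of the pathway were read from the same fits. They came from 4 lists drawn up by function, but with earlier results of these data known. Of 24 origin firing and fork factors, 9 were called lower and 1 higher in c-Kit+ CKO cells, 19 were lower at an FDR under 0.05, and the median was −0.42. Over all genes the shares were 7.41% called lower, 14.8% called higher and 18.3% lower at an FDR under 0.05, and the lists that follow are read against these. Ticrr, which recruits factors that fire origins, was at 9.28, 13.9 and 12.0 RPKM in control and 4.61, 5.34 and 5.23 RPKM in CKO libraries, and fell by 1.27 on the log2 scale (SE 0.13, FDR 0.000212). The histone chaperone Asf1b (−0.94, FDR 0.000287), the fork protection factor Timeless (−0.67, FDR 0.000306) and the alternative clamp loader subunit Chtf18 (−0.55, FDR 0.000285) followed by lowest p. Pold4, a small accessory subunit of polymerase delta, was the one called higher, from 0.766, 0.658 and 0.923 RPKM to 2.04, 1.76 and 2.16 RPKM (log2 fold change 1.28, SE 0.30, FDR 0.00677). It was higher in Thy1+ control cells, at 3.12 to 3.59 RPKM, than in c-Kit+ control cells.

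Of 8 genes of nucleotide supply, 1 was called, Rrm2, the small subunit of ribonucleotide reductase (−0.96, SE 0.18, FDR 0.00106), and 5 were lower at an FDR under 0.05. Of 17 genes of mitosis, 2 were called lower, the checkpoint kinase Bub1 (−0.76) and the topoisomerase Top2a (−0.60), 9 were lower at an FDR under 0.05, and the median was −0.20. Top2a lost its call without c-Kit+ control replicate 2 (−0.47) and with all 12 libraries in one fit. Among 9 germ cell and repair relatives of replication proteins, 6 were called lower and 1 higher. Meiob, a relative of Rpa1 that acts in meiotic recombination, was at 3.16, 8.73 and 5.71 RPKM in control and 0.659, 0.529 and 0.221 RPKM in CKO libraries (log2 fold change −3.69, FDR 0.000289). Mcmdc2, an MCM-domain protein of meiosis, was at −1.996 (FDR 0.000652), and the polymerases Poln and Polq at −1.73 and −0.58 (FDR 0.000291 and 0.000508). Helb, a helicase, was the one called higher, at 0.52, a call lost without c-Kit+ control replicate 3 (0.41) and without CKO replicate 1. In Thy1+ cells none of the genes on these lists was called, and with the replicate block 6 of the 58 were called lower (4.92% of all genes): Ticrr, Timeless, Mcmdc2, Meiob, Spata22 and Poln.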

How the data were processed

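Poly(A) RNA-seq counts of 12 libraries were analysed. Per the labels and the study's methods, the authors trimmed reads with Trimmomatic 0.39 and aligned them to mm10 with HISAT2 2.1.0. The authors deposited unnormalized gene counts from featureCounts, version 2.0.3 in its header, with the paired-end option but without counting read pairs once and with no strand option recorded, so reads of genes that overlap on opposite strands cannot be told apart. Among counts from 1 to 19, 65.6 to 69.5% were even, as when both mates of a pair are counted. IDs without a gene symbol (1904 of 27179) held 0.511 to 0.776% of the counts and stayed in the fits. ChIP-seq data were not analysed here.

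Genes were filtered with filterByExpr, scaled by TMM and tested with edgeR 4.0.16 (quasi-likelihood test, Benjamini-Hochberg over all genes tested, R 4.3.3) on the 6 libraries of each comparison, and on all 12 for the interaction. RPKM used TMM-scaled library sizes and the exon lengths of the count table. DESeq2 1.42.0, edgeR's exact test, other scalings and filters, a replicate block and leaving out each library were the alternatives. Deviations of same-numbered libraries correlated at 0.118 to 0.198 in c-Kit+, 0.387 to 0.633 in Thy1+ and 0.165 to 0.408 between control populations, so the numbers were taken to pair libraries there. The scripts were tested on simulated data with the same dispersion in every library and no replicate effect. Those data do not bear on error rates at the spread of the Thy1+ libraries. Named genes were all 44 members, with every library's value for those called or of lowest p in their group, and up to 4 called genes of each other list. The members and gene lists were chosen with earlier results of these data known. Promoter windows came from RefSeq on GRCm38.p6, the same assembly as mm10.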

Additional observations from a re-analysis of the deposited data

How the results depend on the processing

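In c-Kit+ cells the 32 genes by FDR became 15 with all 12 libraries in one fit, and the 12 called became 32 with no fold minimum, under which other pathway genes called lower went from 18 to 40. Leaving out 1 library gave 11 to 12 called genes, 26 to 32 by FDR, 17 to 21 other pathway genes lower and 1 to 2 higher. Rfc5 (−0.03) was at 0.025 with all 12 libraries and at −0.085 to 0.024 without 1 library, above 0 without c-Kit+ control replicate 1 or CKO replicate 3. Prim2 (−0.45) and Orc1 (−0.50) lost their calls with all 12 libraries in one fit. In Thy1+ cells the replicate block gave 19 genes by FDR in place of 0, and other pathway genes called lower went from 0 to 1 under DESeq2, the exact test and the fit of all 12 libraries, and to 6 under the block. Leaving out 1 library kept the Thy1+ and interaction counts of replication and other pathway genes at 0, while over all genes 10 were called in Thy1+ cells without control replicate 1 and 1 in the interaction without c-Kit+ control replicate 3. In the control comparison the 11 called became 19 with plain library sizes and 25 lower and 1 higher with no fold minimum, where other pathway genes went from 28 to 44. The 1 gene higher by FDR became 0 under DESeq2, its size factors, plain library sizes, no filter, a filter of 1 CPM and the exact test. Leaving out 1 library gave 5 to 23 called, 7 to 36 lower and 0 to 0 higher by FDR, and 12 to 41 other pathway genes. The replicate block, for which the interaction's numbers did not pair all libraries, called 1 other pathway gene in the interaction, Helb, and 446 genes over the whole table in place of 0, and moved no other count of replication or pathway genes called by over 1.5 times. Of the values of single genes under all alternatives, 868 in the c-Kit+, 220 in the Thy1+, 163 in the control and 36 in the interaction comparison kept direction and side of the threshold, 9 c-Kit+ and 16 control values dropped out, and 20, 5 and 1 values in the c-Kit+, Thy1+ and control comparisons were newly called. The cause of these changes was not tested. Having 3 libraries a group and somatic RNA in the sorts limits all values.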
